A study of Mus musculus with 6 samples.

Results

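The genes of collagens, laminins and integrins were examined for H3K27ac in mouse embryonic stem cells (mESCs). They were picked by a symbol rule, as the protein-coding genes of the GRCm38 annotation named Col, Lam or Itg with a chain number. No measured value entered this rule, but the set was chosen with earlier results of these data known. The rule gave 74 of 21853 protein-coding genes, with 44 collagen, 11 laminin and 19 integrin genes on 18 chromosomes. H3K27ac, acetylation of lysine 27 of histone H3, marks active promoters and enhancers, and it was mapped by sequencing of immunoprecipitated chromatin (ChIP-seq). The cells were of the E14 line (E14Tg2A Rosa26-Cre Oct4-IRES-Puro), grown in N2B27 medium with LIF and the inhibitors PD0325901 and CT-99021, a MEK inhibitor and a GSK3 inhibitor. In 6 samples, 2 per condition, cells received the solvent DMSO (Control), 100 nM NVP-2, an inhibitor of the transcription kinase CDK9, or 800 nM actinomycin D (ActD), a DNA intercalator that blocks RNA polymerases, for 2 h. All groups shared this line and medium, and every immunoprecipitation contained chromatin of the human line HEK293T as spike-in reference.

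Values were taken from the authors' list of 22973 control peaks, which pools both control replicates and gives positions without heights or counts. The authors joined peak calls that lay near each other, so the width of a listed peak can include gaps between calls. The NVP-2 and ActD samples were not analysed here, so nothing below compares treatments. A gene was called marked when a listed peak overlapped the 1 kb to either side of its transcription start site (TSS) by at least 1 bp. A gene body peak was a peak that overlapped the gene elsewhere and not this promoter window. Shares carry 95% Wilson intervals, which cover counting error only, and no replicate error or depth can be read from the list. In bulk chromatin a peak does not show whether all cells or a part of them carried the mark. Of 12 pluripotent stem cell markers 10 were marked at the promoter, among them Pou5f1, Sox2 and Nanog, and Klf4 and Esrrb were not, although another start of Esrrb was. Of 10 markers of extraembryonic endoderm, a source of basement membrane, 2 were marked at the promoter (Gata4 and Gata6), and Pdgfra was marked at another start. Of 10 fibroblast markers 2 were marked at the promoter (Twist1 and Pdgfrb). Over all protein-coding genes 48.8% of promoters were marked. The intervals of both lists of 10 markers (5.67 to 51.0%) held this share, and that of the pluripotent markers (55.2 to 95.3%) lay above it. The part of other cell types in the marks below was not tested.

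Collagens are matrix proteins of triple-helical chains. Fibrillar collagens form fibres, type IV collagen forms the sheet of the basement membrane, and FACIT collagens attach to fibres. Laminins are trimers of an alpha, a beta and a gamma chain that build the other sheet of the basement membrane, and the laminin of the early embryo joins the products of Lama1, Lamb1 and Lamc1. Integrins are surface receptors of an alpha and a beta subunit that bind these ligands and link them to the cytoskeleton.

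The starts of members with and without a peak are shown here as sequence, since the medians of their CpG ratio, which the symbol rule did not use, differed while single members overlapped. Each run is the 250 bases before the TSS in the mm10 genome, written 5′ to 3′ along the gene's strand, with every CG in capitals. Lama1, Itga5 and Col13a1 had wide promoter peaks, and these stretches held 14, 10 and 24 CG.
Lama1 (chr17:67697009-67697258, plus strand): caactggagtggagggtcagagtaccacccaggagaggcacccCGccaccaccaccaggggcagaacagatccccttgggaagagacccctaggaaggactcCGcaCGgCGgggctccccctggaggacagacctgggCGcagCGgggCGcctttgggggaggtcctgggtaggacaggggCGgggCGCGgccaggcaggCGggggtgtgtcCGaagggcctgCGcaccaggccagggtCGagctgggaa
Itga5 (chr15:103366764-103367013, minus strand): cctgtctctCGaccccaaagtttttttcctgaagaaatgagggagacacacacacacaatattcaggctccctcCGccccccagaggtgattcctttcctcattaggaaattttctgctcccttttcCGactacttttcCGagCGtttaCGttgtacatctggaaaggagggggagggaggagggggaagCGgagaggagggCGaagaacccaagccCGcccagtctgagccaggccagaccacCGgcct
Col13a1 (chr10:61979109-61979358, minus strand): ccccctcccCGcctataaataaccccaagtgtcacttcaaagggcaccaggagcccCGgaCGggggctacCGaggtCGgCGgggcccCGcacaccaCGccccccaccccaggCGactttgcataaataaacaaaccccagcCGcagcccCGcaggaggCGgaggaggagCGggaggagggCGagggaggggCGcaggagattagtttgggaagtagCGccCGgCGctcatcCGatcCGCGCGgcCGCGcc
Col9a2 and Itgb7 were marked with 2 and 5 CG in this stretch, Col9a2 by a peak that began after the TSS and Itgb7 within a peak that lay mostly outside the gene.
Col9a2 (chr4:121039135-121039384, plus strand): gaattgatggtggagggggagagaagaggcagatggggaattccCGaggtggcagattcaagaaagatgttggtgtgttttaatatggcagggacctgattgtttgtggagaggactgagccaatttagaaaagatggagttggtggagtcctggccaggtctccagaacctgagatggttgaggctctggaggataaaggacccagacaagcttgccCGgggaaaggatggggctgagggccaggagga
Itgb7 (chr15:102231945-102232194, minus strand): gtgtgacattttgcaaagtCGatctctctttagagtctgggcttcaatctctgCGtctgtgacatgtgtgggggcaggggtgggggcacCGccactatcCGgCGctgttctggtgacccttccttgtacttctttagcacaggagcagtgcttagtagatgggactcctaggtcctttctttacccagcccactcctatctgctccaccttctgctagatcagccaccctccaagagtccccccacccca
Itga3 and Col23a1 had the highest CpG ratios of the unmarked members, with 21 and 18 CG here, and Col28a1 had the lowest, with none.
Itga3 (chr11:95076802-95077051, minus strand): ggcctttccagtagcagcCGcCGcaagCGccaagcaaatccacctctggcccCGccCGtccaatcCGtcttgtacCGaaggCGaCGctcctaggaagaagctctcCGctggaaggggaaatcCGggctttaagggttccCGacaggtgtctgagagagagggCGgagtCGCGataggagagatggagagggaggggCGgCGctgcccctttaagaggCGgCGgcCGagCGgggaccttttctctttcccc
Col23a1 (chr11:51289670-51289919, plus strand): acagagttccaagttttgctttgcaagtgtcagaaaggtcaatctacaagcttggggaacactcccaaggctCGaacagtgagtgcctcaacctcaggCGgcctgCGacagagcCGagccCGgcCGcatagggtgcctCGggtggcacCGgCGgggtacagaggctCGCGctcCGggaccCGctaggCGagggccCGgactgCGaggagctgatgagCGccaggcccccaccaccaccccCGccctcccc
Col28a1 (chr6:8192618-8192867, minus strand): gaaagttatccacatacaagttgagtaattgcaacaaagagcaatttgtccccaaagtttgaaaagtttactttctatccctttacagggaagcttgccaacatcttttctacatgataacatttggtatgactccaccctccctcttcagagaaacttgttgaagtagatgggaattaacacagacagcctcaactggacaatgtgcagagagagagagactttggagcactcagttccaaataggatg
Col4a1 and Col4a2 lie head to head, and their annotated first exons share 22 bases, shown on the plus strand.
Col4a1 and Col4a2 (chr8:11312805-11312826): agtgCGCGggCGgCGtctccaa

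A promoter peak was found at 17 of the 74 genes, or 23.0% (14.9 to 33.7), where 48.8% of all protein-coding genes were marked. By family, 5 of 44 collagen genes were marked (11.4%, 4.95 to 24.0), 5 of 11 laminin genes (45.5%, 21.3 to 72.0) and 7 of 19 integrin genes (36.8%, 19.1 to 59.0). The upper bound of the collagen share lay below the share of all genes, whereas the intervals of the laminins and integrins held it. With peaks of at least 1 kb only, 3 of 44 collagen genes (6.82%) and 43.7% of all protein-coding genes were marked. Gene body peaks were found in 24 of the 74 genes, or 32.4% (22.9 to 43.7), where 21.9% of all protein-coding genes had one. The members are long genes, and at the shares of all genes in the same length class 30.2 of the 74 would have one, more than the 24 found. They were listed in 8 of 44 collagen genes (18.2%, 9.51 to 32.0), 8 of 11 laminin genes (72.7%, 43.4 to 90.3) and 8 of 19 integrin genes (42.1%, 23.1 to 63.7). Both kinds of peak were present at 11 genes, a promoter peak alone at 6 and gene body peaks alone at 13. The other 44 genes, 33 collagens, 3 laminins and 8 integrins, had no peak in either place. A peak in at least 1 of the places was thus present at 40.5% of the members (30.1 to 51.9) and at 56.2% of all protein-coding genes. With 1 pooled list no test between the families was made.

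**Figure D1:**
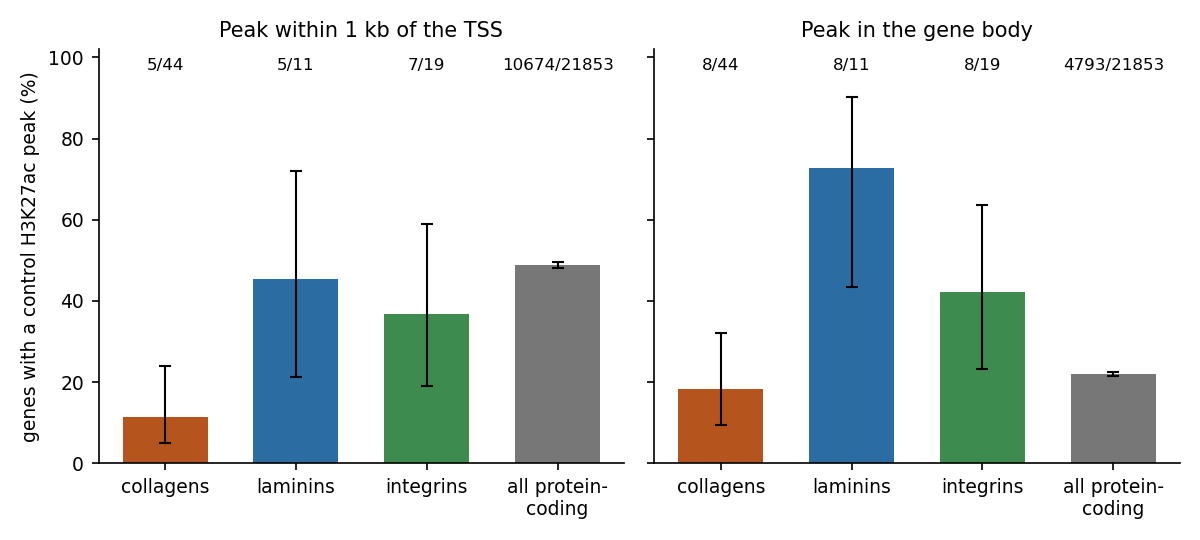
Share of genes (%) with a control H3K27ac peak within 1 kb of the TSS (left) and in the gene body (right), for collagens, laminins, integrins and all protein-coding genes; bars are shares, error bars 95% Wilson intervals, and the counts stand above. Collagens had the lowest share in both panels (11.4% and 18.2%), and laminins had the highest share with a gene body peak (72.7%).

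Among the fibrillar collagens 1 of 11 was marked. It was Col5a1, a chain of the minor fibrillar type V, with a peak of 1191 bp that reached 583 bp before and 607 bp after the TSS. The genes of type I collagen, the main collagen of bone and skin, had their nearest peaks 21.2 kb (Col1a1) and 94.8 kb (Col1a2) from the TSS. For Col2a1, the main collagen of cartilage, this distance was 39.9 kb, and for Col3a1, a collagen of vessels and skin, 45.8 kb. None of the 11 fibrillar genes had a gene body peak. The 10 fibrillar genes other than Col5a1 had no listed peak at promoter or body.

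Of the 6 type IV genes 2 were marked, Col4a1 and Col4a2, the chains of the common basement membrane network. They shared a single peak of 993 bp (chr8:11312306-11313298), which covered both starts, 21 bp apart. Both calls therefore rest on the same peak, and the list cannot tell to which gene the acetylation belongs. With peaks of at least 1 kb only, both calls were lost and none of the 6 genes was marked. The chains of specialised basement membranes, among them that of the kidney glomerulus, also lie head to head in pairs, and neither pair was marked. Col4a3 and Col4a4 have starts 127 bp apart, and their nearest peak was 138 kb away at Mff. Col4a5 and Col4a6, 1.31 kb apart on the X chromosome, were the members farthest from any peak, at 751 and 753 kb. In the whole of both unmarked pairs, 274 and 524 kb, no peak was listed. Col4a2 alone of the 6 had a gene body peak, of 1592 bp in intron 4 (chr8:11384636-11386227).

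Col13a1, a transmembrane collagen of cell contacts, was 1 of 4 transmembrane members marked. Its peak of 4275 bp reached 1914 bp before and 2360 bp after the TSS (chr10:61976748-61981022), and it had 5 gene body peaks, more than any other member. A body peak lay in intron 1, 2 lay in intron 2 and 1 in intron 5, with widths of 672, 5915, 396 and 1522 bp. The fifth, of 22248 bp (chr10:61817111-61839358), touched the last exon and lay mostly beyond the gene's end. Col17a1, of hemidesmosomes, and Col23a1 and Col25a1 were unmarked, with nearest peaks at 12.3, 25.9 and 119 kb.

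Col9a2, a cartilage chain of type IX collagen, was the marked member among 9 FACIT genes. Its peak of 4453 bp (chr4:121039770-121044222) began 385 bp after the TSS and lay wholly within the gene, 27.9% of which was under peaks. The other type IX genes were unmarked, Col9a3 with a peak of 1429 bp over exon 12 and Col9a1 with its nearest peak 76.6 kb away. None of the 6 type VI, 3 type VIII and X, 2 multiplexin and 2 other collagens (Col26a1 and Col28a1) was marked, nor was Col7a1 of anchoring fibrils. Of these, Col18a1, the source of endostatin, had 2 peaks in intron 2 of 8808 and 1608 bp, and Col26a1, Col6a4 and Col6a5 had 1 gene body peak each. The genes of the widespread type VI chains, Col6a1, Col6a2 and Col6a3, had no peak within 47 kb of the TSS and none in the gene.

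**Figure D2:**
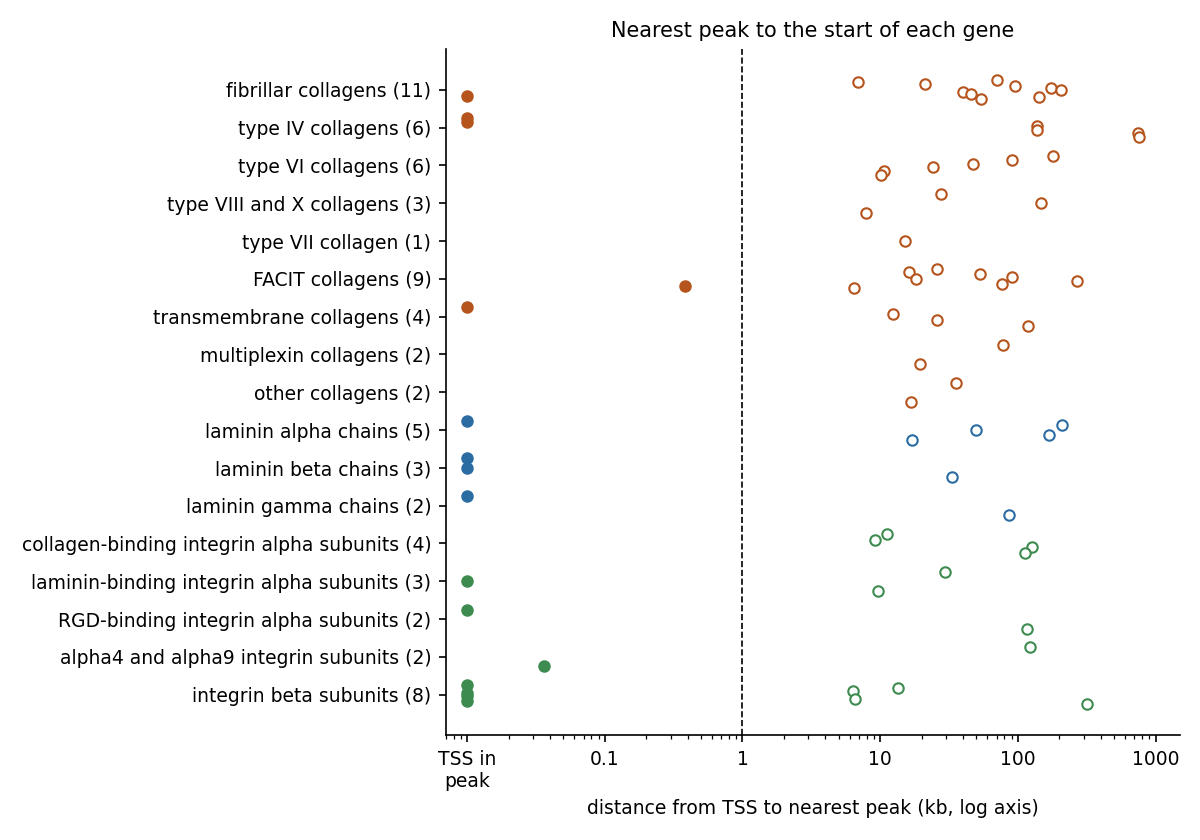
Distance (kb, log axis) from the TSS of 73 of the 74 genes to the nearest control H3K27ac peak, by subgroup with the number of genes drawn; filled points are marked genes, open points unmarked, the dashed line is the 1 kb window, and a TSS inside a peak is drawn at the left edge. Unmarked genes lie at 6.36 kb or more, and the marked ones at 0.385 kb or less.

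Among laminin alpha chains 1 of 5 was marked, Lama1, the chain of embryonic basement membranes. Its peak was 12777 bp wide (chr17:67687815-67700591) and reached 9444 bp before and 3332 bp after the TSS. A further peak of 3905 bp lay in its intron 1. Lama5, the most widespread alpha chain of adult tissues, was unmarked at the promoter and had 2 narrow peaks, of 974 and 237 bp, over exons 3 and 68. Lama3, of epithelial basement membranes, had a gene body peak of 2495 bp in intron 2, 50.8 kb from the TSS. Lama2, of muscle, and Lama4, of vessels, had no peak in the gene, and their nearest peaks were 209 and 168 kb from the TSS. Marks were therefore listed at the start of 1 alpha chain and inside 2 others.

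Of the beta chains Lamb1, the partner of Lama1 in the embryo, had a promoter peak of 1429 bp and a peak of 1584 bp in intron 12. Lamb2, of the neuromuscular junction and the glomerulus, had a promoter peak of 2962 bp, of which 1981 bp lay before the TSS, and a second peak over its last exons that was at the promoter of the neighbour Usp19. Lamb3, the epithelial beta chain, was unmarked, and its gene body peak of 2796 bp was at the promoter of G0s2, a gene within its annotated span. Both beta chains with a promoter peak carried it over the TSS itself.

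Lamc1, the gamma chain shared by most laminins, was marked, and Lamc3 was not, with its nearest peak 86.4 kb away. The promoter peak of Lamc1 was 7916 bp wide and extended 6427 bp into the gene. Lamc1 had 4 further peaks counted to the gene body, of 3499 to 9982 bp, of which that of 9184 bp touched the last exon and lay mostly beyond the end of the gene, and 26.2% of its bases were under peaks. With Lama1 and Lamb1, all 3 chains of the embryonic laminin had a promoter peak and at least 1 gene body peak. Having both was not particular to these chains, as it held for all 5 marked laminins.

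Of the integrin beta subunits 4 of 8 were marked. Itgb1, the subunit shared by most matrix-binding integrins, had a promoter peak of 1588 bp and no gene body peak. Itgb5, a vitronectin receptor subunit, had a promoter peak of 1335 bp and 3 gene body peaks, of 361 bp in intron 1, 3316 bp over exon 2 and 935 bp in intron 4. Itgb4, the subunit of hemidesmosomes, had a peak of 6315 bp (chr11:115969148-115975462), with 5561 bp before the TSS and 11.9% of its width in the gene, and 2 further peaks in the last part of the gene.

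Itgb7, a subunit of lymphocyte integrins, had the widest peak at the start of any member, 22760 bp (chr15:102231121-102253880). Only 3.62% of it lay within Itgb7, 21936 bp lay before the TSS, and it reached into the neighbouring gene Rarg, a retinoic acid receptor. To which gene this acetylation belongs was not tested. Itgb2, the leukocyte subunit, Itgb3, of platelets, Itgb6, of epithelia, and Itgb8 were unmarked, with nearest peaks at 13.4, 6.36, 6.57 and 320 kb. Itgb3 and Itgb6 each had a gene body peak in intron 1, of 1359 and 312 bp.

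Of the alpha subunits 3 of 11 were marked, 1 in each of 3 ligand groups. Itga5, which with Itgb1 forms the main fibronectin receptor, had a peak of 10939 bp (chr15:103358558-103369496) that reached 8205 bp into the gene. No separate gene body peak was listed, but 36.5% of its bases were under this peak, the largest share of any member. Itga6, a laminin receptor subunit that pairs with Itgb1 or Itgb4, had a promoter peak of 2452 bp and a peak of 16285 bp over exon 3 and the introns beside it (chr2:71800397-71816681). A second body peak of 9536 bp was centred at -39.0 kb from this TSS, at the promoter of Gm17250 and across the upstream end of the annotated span of Itga6, outside its longest coding isoform. Itga9, which binds tenascin and other ligands, had the narrowest promoter peak, 755 bp beginning 36 bp after the TSS (chr9:118606726-118607480), and a peak of 3951 bp in intron 23.

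None of the 4 collagen-binding alpha subunits was marked, and their nearest peaks lay 11.2 kb (Itga1), 113 kb (Itga2), 9.10 kb (Itga10) and 127 kb (Itga11) from the TSS. The peak in intron 1 of Itga1 was at the promoter of Pelo, a gene within it, and Itga10 had a peak over its last exons. The laminin receptor subunits Itga3 and Itga7 were unmarked, with nearest peaks at 29.7 and 9.69 kb, as were Itga4, of leukocytes, at 123 kb and Itga8, of the kidney, at 117 kb. Among the members, both subunits were marked for the receptors formed by Itgb1 with Itga5, Itga6 or Itga9 and by Itgb4 with Itga6, and for no collagen-binding receptor.

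**Figure D3:**
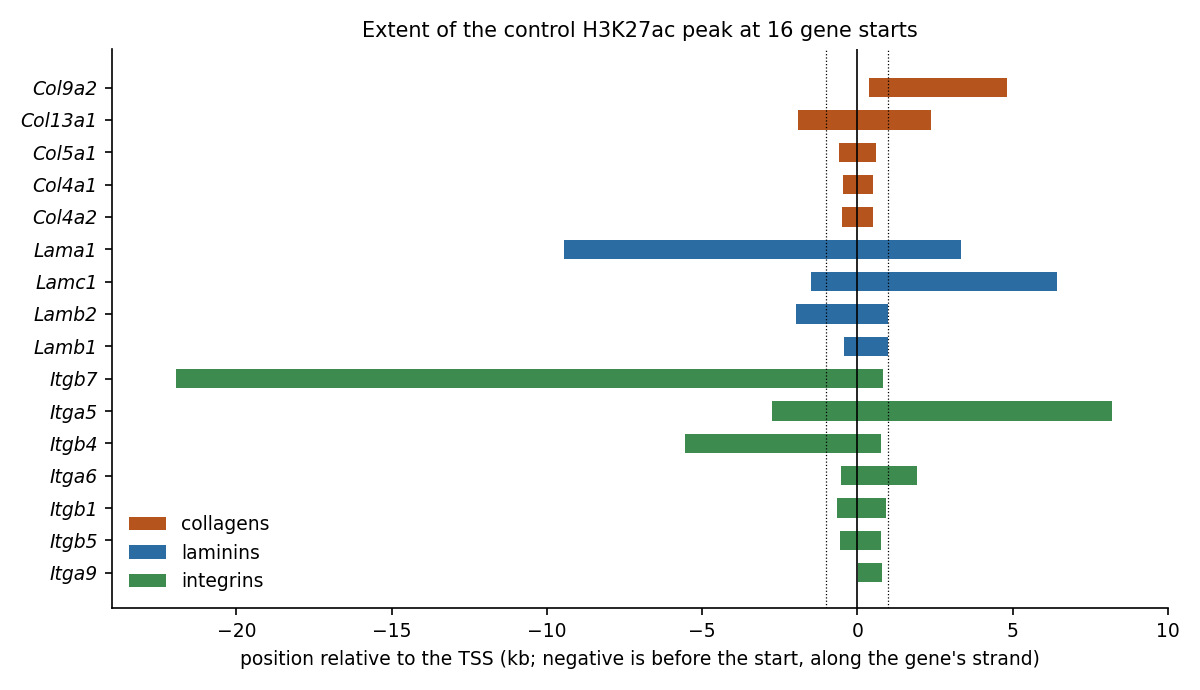
Extent of the promoter peak (kb from the TSS, along the gene's strand) at 16 of the 17 marked genes, ordered by width within each family; the dotted lines are the 1 kb window. The peaks of Itgb7, Lama1 and Itgb4 lie mostly before the start, those of Itga5, Lamc1 and Itga6 mostly after it, and those of Col9a2 and Itga9 begin after it.

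The 17 marked genes carried 16 distinct promoter peaks of 755 to 22760 bp, with a median of 2450 bp over the genes, and the median over all marked protein-coding genes was 2170 bp. The TSS lay inside the peak at 15 of the 17, or 88.2%, as it did at 90.5% of marked protein-coding genes. No promoter peak of a member overlapped the promoter of a protein-coding or lincRNA gene outside the families, taken at the start of its longest isoform. Other starts and other gene types were not checked. None of the other 57 genes had a peak within 5 kb of the TSS, whereas 7.30% of the unmarked protein-coding genes did. The marked members whose peak did not cover the TSS were Itga9 (36 bp away) and Col9a2 (385 bp), and the unmarked members nearest to a peak were Itgb3 (6364 bp), Col9a3 (6476 bp), Itgb6 (6568 bp) and Col11a2 (6879 bp). The nearest peak was within 10 kb at 7 of the 57 genes (12.3%, against 15.1% of unmarked protein-coding genes) and beyond 100 kb at 18 (31.6%, against 38.3%). It lay at the promoter of another gene in 30 of the 57 (52.6%, against 47.4% of unmarked protein-coding genes). After Col4a6 and Col4a5, the members farthest from a peak were Itgb8 (320 kb), Col22a1 (270 kb) and Lama2 (209 kb).

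Promoters of many widely expressed genes are rich in CpG. A promoter was called CpG-rich when the 500 bp to each side of the TSS had at least 50% GC and an observed over expected CpG ratio of at least 0.6. This held for 27 of the 74 members (36.5%) and for 45.9% of all protein-coding genes. Of the CpG-rich members 14 of 27 were marked, or 51.9% (34.0 to 69.3), where 81.3% of all CpG-rich promoters were. Of the others 3 of 47 were marked, or 6.38% (2.19 to 17.2), where 21.3% of all such promoters were, and these 3 were Col9a2, Itgb7 and Lamb2. At the shares of all genes in the same CpG class, 32.0 of the 74 genes would be marked, against the 17 found. For collagens the count would be 16.6 against 5, for laminins 5.94 against 5 and for integrins 9.45 against 7.

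The median CpG ratio was 0.76 in the 17 marked members, with a range of 0.16 to 0.93, and 0.45 in the 57 unmarked ones, with a range of 0.08 to 0.87. Median GC content was 65.3% and 56.0%. Over all protein-coding genes the median ratio was 0.75 in marked and 0.24 in unmarked genes, and median GC content 59.6% and 49.0%, so the same order held there, with a wider gap. The groups overlapped, with 13 unmarked CpG-rich members. They were 8 collagens (Col2a1, Col8a2, Col12a1, Col15a1, Col23a1, Col25a1, Col26a1 and Col27a1), the laminins Lama5 and Lamc3 and the integrins Itga3, Itga8 and Itgb3. Col23a1 and Itga3, with ratios of 0.87 and 0.83, exceeded the marked median, and their nearest peaks were 25.9 and 29.7 kb away.

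**Figure D4:**
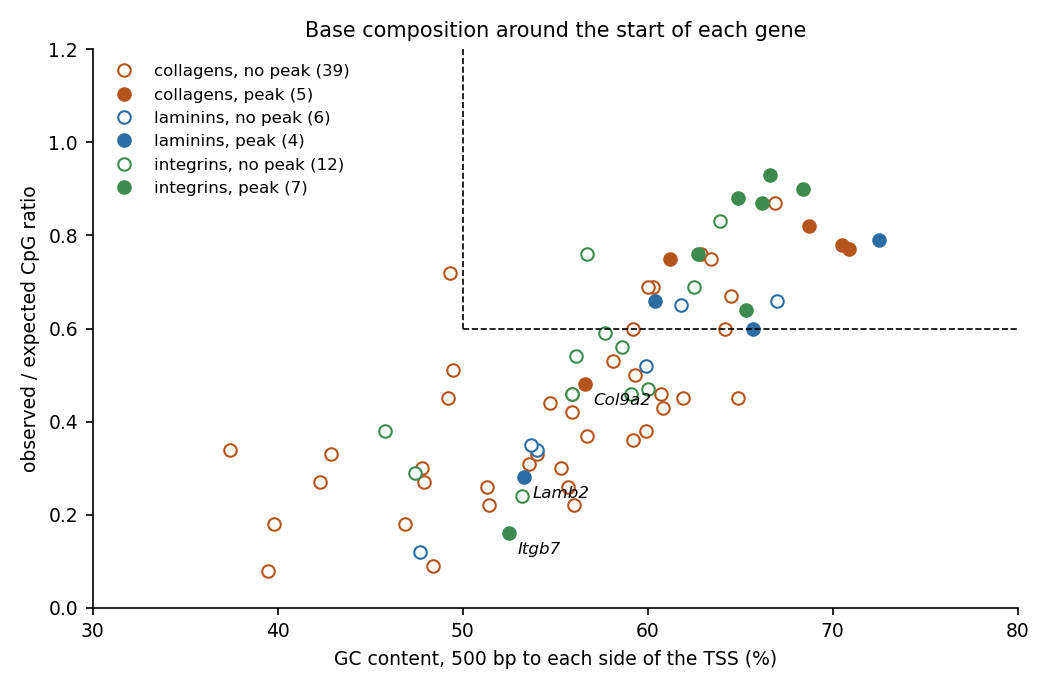
GC content (%) against observed over expected CpG ratio in the 500 bp to each side of the TSS for 73 of the 74 genes, filled where the promoter was marked; the dashed corner encloses CpG-rich promoters. Of 16 filled points 13 lie in the corner, with 13 open ones, and the 3 outside it are named.

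Short motifs were counted on both strands from 250 bp before to 50 bp after the TSS. GGGCGG, the core of the GC box, was present at 11 of 17 marked and 32 of 57 unmarked members and at 45.0% of all protein-coding promoters. CCAAT was present at 4 of 17, 19 of 57 and 38.7%, and TATAAA at 1 of 17 (Col13a1), 6 of 57 and 12.4%. TGANTCA, the AP-1 motif, was present at no marked member, at Col6a1 among the unmarked and at 6.65% of all promoters. A match is a string in this window and not a site shown to be bound.

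The 24 genes with gene body peaks held 39 of them, 13 in collagens, 14 in laminins and 12 in integrins. Of these 17 overlapped an exon, 8 lay in the first intron, 13 in a later intron and 1 outside the isoform, and 5 were at the promoter of another gene (Phykpl at the end of Col23a1, Pelo, Gm17250, Usp19 and G0s2). Their median width was 1770 bp, the narrowest being 237 bp and the widest 22248 bp. Most of the genes, 16, had 1 such peak, 4 had 2 (Col18a1, Itga6, Itgb4 and Lama5), 2 had 3, Itgb5 among them, and Lamc1 and Col13a1 had 4 and 5. Of the marked members 11 of 17 also had a gene body peak (64.7%, 41.3 to 82.7), and of the unmarked 13 of 57 (22.8%, 13.8 to 35.2). The shares over all protein-coding genes were 29.9% and 14.4%. All 5 marked laminins had one.

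The members were long, with a median of 106 kb against 17.4 kb for all protein-coding genes, and long genes have more room for a peak. Per 100 kb of gene there were 0.45 body peaks in the members, with 0.242 in collagens, 0.845 in laminins and 0.726 in integrins, and 0.783 over all protein-coding genes. Peaks covered 1.85% of the members' bases (0.701% of collagens, 4.11% of laminins and 3.32% of integrins) and 5.11% of those of all genes. Under 20 kb 2 of 7 members had a body peak (28.6%) and 9.22% of all protein-coding genes did. From 20 to 50 kb these shares were 16.7% (3 of 18) and 26.5%, from 50 to 100 kb 30.0% (3 of 10) and 40.4%, from 100 to 200 kb 46.4% (13 of 28) and 51.5%, and above 200 kb 27.3% (3 of 11) and 57.9%. The members were thus above all genes in the shortest class, of 7 genes, and below in the others. In the class of 100 to 200 kb 3 of 4 laminins and 4 of 6 integrins had a body peak, and 6 of 18 collagens did. At the shares of all genes in the same length class, 18.4 of the 44 collagens would have a body peak against 8 found, 4.79 laminins against 8 and 7.06 integrins against 8.

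**Figure D5:**
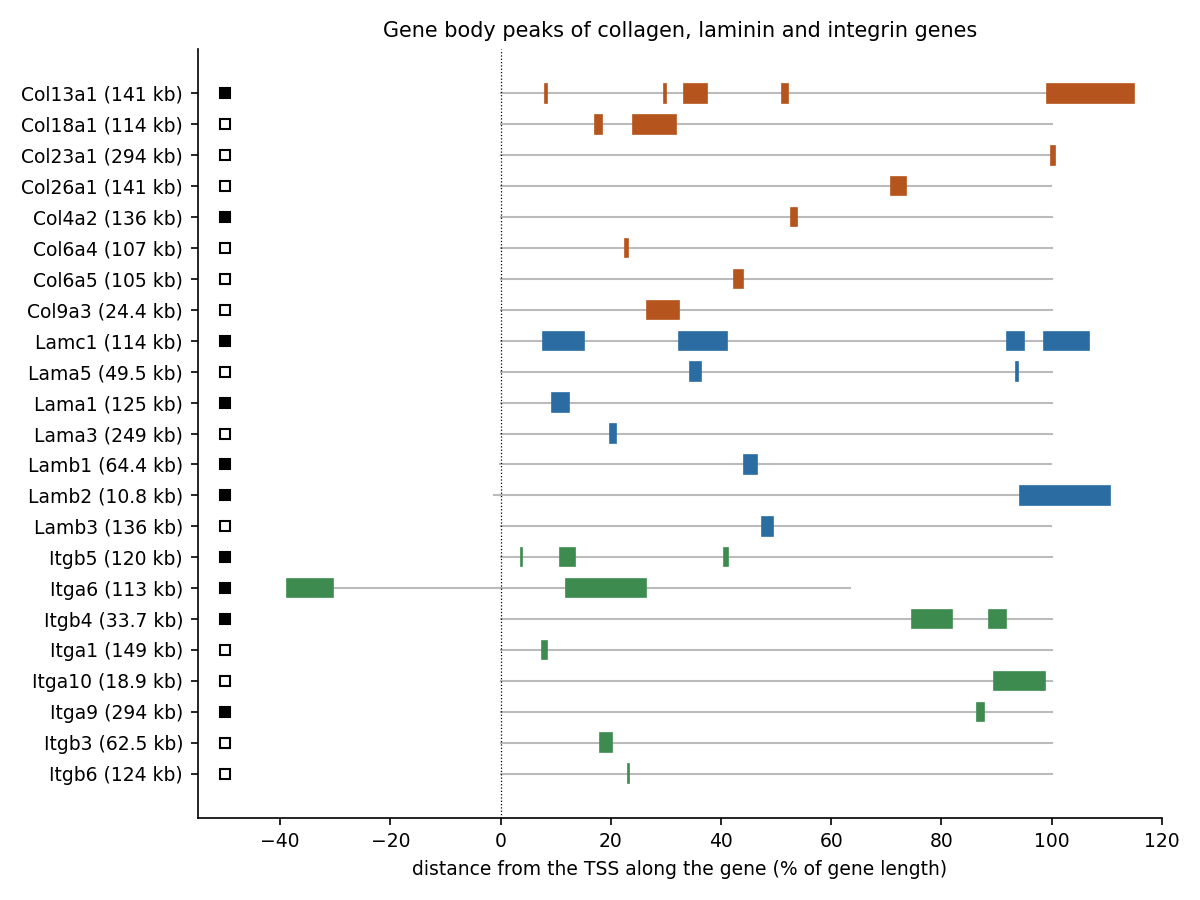
Gene body peaks of 23 of the genes that have any, drawn to scale as bars at their distance from the TSS (% of gene length; grey line, the annotated gene); filled squares mark genes that also have a promoter peak. Col13a1 carries 5 and Lamc1 4, the last of each mostly beyond the gene, while most genes have 1.

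Genes that act with the members, taken from lists outside the symbol rule, were marked at 40 of 71 promoters (56.3%, 44.8 to 67.3), an interval that holds the 48.8% of all protein-coding promoters. The interval of each single list held this share too, except that of the integrin subunits outside the rule (12.5%, 2.24 to 47.1), which lay below it. Of the enzymes and chaperones that hydroxylate, glycosylate and fold collagen chains in the endoplasmic reticulum 12 of 17 were marked, among them Serpinh1, the collagen chaperone, P4hb and P4ha1 of prolyl hydroxylase, and Plod1, Plod2 and Plod3. Genes for trimming and crosslinking of the secreted chains were marked at 6 of 13, with Bmp1 marked and Lox not. Of other matrix genes 6 of 11 were marked, with the fibronectin gene Fn1 and the basement membrane genes Nid2, Hspg2 and Agrn marked and Nid1 and Sparc unmarked. Nid1 had its nearest peak 1.13 kb from the TSS, just outside the window, and Sparc was marked at another start, which makes 7 of 11 with any isoform. Non-integrin receptors were marked at 6 of 8, including Dag1, the laminin receptor dystroglycan, and Ddr1 but not Ddr2, the collagen receptor kinases. The adaptors that link integrins to actin were marked at 9 of 14, with Tln1, Fermt2, Ilk, Vcl and Ptk2 among them. Of 8 integrin subunits outside the rule, mostly of leukocytes and platelets, Itgav alone was marked, the alpha subunit that pairs with Itgb5.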

How the data were processed

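H3K27ac ChIP-seq was made in 6 samples. According to the methods and the labels, the authors trimmed adapters (Cutadapt), aligned the reads to a combined mm10 and human genome (bwa meme), discarded duplicates (Picard 2.9.1) and reads of low mapping quality (samtools 1.4), made LanceOtron peak calls, joined near ones (Bedtools) and filtered them by height, enrichment and distance to ATAC-seq summits. The deposited list gives peak positions in base pairs, with both control replicates pooled, so a peak that failed a filter cannot be told from absent signal. Depth cannot be read from this list, and treated libraries were not analysed here.

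Peaks were set against GENCODE release M21 (GRCm38), whose release differs from that of the study. The TSS of the protein-coding isoform of longest genomic span stood for each gene. Sequences came from the GRCm38 genome. Members, subgroups and lists were chosen with earlier results of these data known. Genes named with coordinates followed a rule of width, number, share of bases and distance, and the sequences printed were picked from that rule's after their values were seen, leaving out stretches that overlap annotated exons by more than 30 bases. The functions recovered all 21853 promoter states in simulated data. Python 3.11.15, numpy 2.4.6, pandas 2.3.3, scipy 1.17.1, pysam 0.24.0 and matplotlib 3.10.9 were used. Some values and sequences of single members are not reported here, and figures by gene leave out 1 member. Alternative windows, isoforms, overlaps, widths and CpG thresholds were tried.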

Additional observations from a re-analysis of the deposited data

How the results depend on the processing

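The list has no heights, so no threshold on height could be varied. Of 62 shares of members and of the lists of other genes recomputed under an alternative, 0 moved outside the interval of the value reported. Every recomputation used the same peak list, and the intervals of small groups are wide, so this says little about stability. The laminin share with a gene body peak fell from 72.7% to 54.5% and still counted as unmoved. Of 518 promoter calls of members under an alternative, 5 changed, all from marked to unmarked, and 13 of the 17 marked genes were marked under every alternative. The narrower window, the larger overlap, the width limit and the TSS required inside a peak can only remove calls. Under these settings an unmarked gene could not change, and the direction of the 5 changes was fixed in advance. With peaks of at least 1 kb only, Col4a1, Col4a2 and Itga9 lost their call, and the collagens fell to 3 of 44 (6.82%). With the TSS itself required inside a peak, Col9a2 and Itga9 lost theirs. With peaks at the promoter of another gene left out, gene body peaks were left in 15.9% of the collagens, 54.5% of the laminins and 36.8% of the integrins, and in 19.4% of all protein-coding genes. Counting members that share a peak or lie within 10 kb once gave 9.76% for collagens. The share of all protein-coding promoters marked ranged from 43.7% (peaks of at least 1 kb) to 51.0% (any isoform). No paired analysis was possible because the control replicates were pooled in a single list and no replicate could be left out.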
